A study of Rattus norvegicus with 12 samples.

Results

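The cytochrome P450 genes of families 1 to 4 were taken from a rat kidney array series as every gene whose single symbol in the platform annotation begins with Cyp1, Cyp2, Cyp3 or Cyp4 followed directly by a letter. The rule gave 42 genes of 14217 with a single symbol, made up of 3 of family 1, 25 of family 2, 4 of family 3 and 10 of family 4. Each gene was read from 1 probe set, the one with the highest mean signal over the 12 arrays. The series holds whole rat kidneys from embryonic day 13 (E13, n = 3 arrays), embryonic day 18 (E18, n = 4) and week 4 after birth (Wk4, n = 3). The remaining group, called recombined tissue here (n = 2), joined non-branched ureteric buds (UBs) that had formed in vitro with metanephric mesenchyme (MM), and was kept in culture for 6 days. The design set this tissue beside the early, late and post-developmental kidney, and its measure of change was a 3-fold difference in expression. The labels name no strain, sex, genotype or added agent, and do not say whether arrays of a group came from separate animals, litters or cultures. The p-values therefore rest on the spread between arrays alone, part of which may be technical, and the few arrays per group limit how precisely any value is known.

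P450 enzymes are haem proteins of the endoplasmic reticulum that insert 1 oxygen atom into a substrate, with electrons passed to them by the reductase Por. Families 1 to 3 are best known for the oxidation of drugs, pollutants and steroids in liver, and family 4 for the hydroxylation of fatty acids at the end of the chain. In the mature kidney they are found chiefly in the proximal tubule, where Cyp4a enzymes make 20-HETE and Cyp2c epoxygenases make epoxyeicosatrienoic acids from arachidonic acid, lipid mediators that act on vessels and on salt transport.

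In the text, a level is the deposited signal of a probe set. Differences are between group means of log2(signal + 271), and are given ± SE. A gene was called, and is said to have risen or fallen, when its limma adjusted p was under 0.05 and its difference at least 3-fold on that scale. The added 271 draws in differences of dim probe sets, so folds against a dim group are smaller than the ratio of the signals. Levels of different probe sets are not compared with each other.

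Of the 42 genes, 22 passed the filter on low signals, which asked for a signal above the array's own 40th percentile on at least 2 arrays. These were 2 of 3 genes in family 1, 11 of 25 in family 2, 0 of 4 in family 3 and 9 of 10 in family 4. Cyp1a1, Cyp2j3, Cyp4a1 and Cyp4a8 passed through Wk4 arrays alone, and 6 genes were above the percentile on every array. The remaining 20 genes are described near the end.

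Several arrays stood apart. The embryonic arrays were divided into 2 sets by the sign of a component that held 47.7% of their residual variance. E13 replicate 1 and E18 replicates 1 to 3 made up set 1, and the other embryonic arrays set 2. Residuals are taken from the group mean, so this rule splits each group and does not show natural sets. E13 replicate 1 (0.598) and E18 replicate 4 (-0.585) weighed most on the component. E18 replicate 2 had a signal of 52818 for Xist and 4.94 for the Y-linked Eif2s3y, while the other E18 arrays and all Wk4 arrays had Xist signals between 19.0 and 55.9. Eif2s3y read 6053 to 7871 on the Wk4 arrays. The E13 and recombined arrays had both transcripts. Sex-linked signals thus differed between these groups and Wk4, and a part of sex in those comparisons cannot be told apart from stage or culture. Leaving out E18 replicate 2 changed no call of a P450 gene named here. The effects of the sets are given beside the results they touched. The median of all tested probe sets was 0.19 higher in recombined tissue than at Wk4, and 0.03 after median centring, so small differences in that comparison depend on the scaling.

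The promoter windows of the genes that mark the main patterns are printed first. They are Cyp4a8 and Cyp4a3, which rose from E18 to Wk4 and not before, Cyp2c23 and Cyp2d2, which differed in when they rose, and Cyp1b1, which went the other way. The sequences are from RefSeq (assembly GRCr8), the 250 bases before each annotated start, 5′ to 3′ on the gene's own strand. They lie at chr5:133970227-133970476 (Cyp4a8, minus strand), chr5:134352237-134352486 (Cyp4a3, minus), chr1:252863068-252863317 (Cyp2c23, minus), chr7:115819282-115819531 (Cyp2d2, minus) and chr6:21094315-21094564 (Cyp1b1, plus). Capitals mark AAGTCCA (letters associated with HNF4 binding), GTTAAT (HNF1) and GCGTG (the core bound by the aryl hydrocarbon receptor), each on either strand, and a 12-base run shared by the Cyp4a8 and Cyp4a3 windows.
Cyp4a8: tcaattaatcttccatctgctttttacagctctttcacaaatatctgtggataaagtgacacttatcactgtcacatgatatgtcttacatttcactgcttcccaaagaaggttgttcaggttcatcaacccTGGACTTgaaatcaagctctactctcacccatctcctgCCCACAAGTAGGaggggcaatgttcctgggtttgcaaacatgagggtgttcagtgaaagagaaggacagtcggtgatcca
Cyp4a3: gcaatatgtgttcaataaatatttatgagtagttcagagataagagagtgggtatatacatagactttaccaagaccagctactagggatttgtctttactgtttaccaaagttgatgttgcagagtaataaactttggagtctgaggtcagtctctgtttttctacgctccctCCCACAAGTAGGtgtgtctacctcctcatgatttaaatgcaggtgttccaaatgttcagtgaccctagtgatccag
Cyp2c23: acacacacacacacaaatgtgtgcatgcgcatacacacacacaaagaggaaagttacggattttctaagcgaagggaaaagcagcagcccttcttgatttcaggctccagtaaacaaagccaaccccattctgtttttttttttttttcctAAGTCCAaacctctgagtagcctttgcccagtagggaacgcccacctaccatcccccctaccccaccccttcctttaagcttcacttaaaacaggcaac
Cyp2d2: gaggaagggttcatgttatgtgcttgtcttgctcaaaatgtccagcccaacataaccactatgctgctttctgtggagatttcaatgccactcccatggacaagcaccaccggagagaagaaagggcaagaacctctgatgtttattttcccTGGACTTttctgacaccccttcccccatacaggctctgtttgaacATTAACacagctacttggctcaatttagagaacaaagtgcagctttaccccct
Cyp1b1: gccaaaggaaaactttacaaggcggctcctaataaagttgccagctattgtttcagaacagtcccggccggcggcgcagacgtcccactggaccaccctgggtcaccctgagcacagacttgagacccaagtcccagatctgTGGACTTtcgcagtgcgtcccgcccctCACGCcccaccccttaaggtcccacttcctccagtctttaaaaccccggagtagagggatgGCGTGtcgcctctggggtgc

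AAGTCCA was present in the windows of Cyp4a8, Cyp2c23, Cyp2d2 and Cyp1b1, which are 4 of the 18 tested P450 genes with a window in the table, against 3.26% of all 33469 windows of this length. Among genes that did not pass the filter it was also in those of Cyp3a2 and Cyp3a23-3a1. GTTAAT was in those of Cyp2d2 and Cyp4f1 (6.45% of all windows), and GCGTG in those of 6 tested genes, Cyp1b1 among them (25.9%). AGGTCA, the core letters of nuclear receptor sites, left in lower case, was in 5 of the 18, Cyp4a3 among them, and in 14.1% of all windows. The run CCCACAAGTAGG began 80 bases before the start of Cyp4a8 and 76 before that of Cyp4a3, and only 4 windows of all held it, those of Cyp4a2, Cyp4a2l1, Cyp4a3 and Cyp4a8. These are matches of letters and describe the windows alone. AAGTCCA was in the windows of the risers Cyp4a8, Cyp2c23 and Cyp2d2 and of Cyp1b1, which fell from E18 to Wk4. Whether any of these letters act was not tested.

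From E18 to Wk4, 9 of the 22 tested P450 genes rose, beside 5.76% of all tested probe sets, and 1 fell, beside 5.43%. Without the filter the counts were again 9 and 1, of 42, beside 4.19% and 3.95%. The median difference of the 22 was 1.51, and that of all tested probe sets was -0.12. Over all 42 genes, unfiltered, it was 0.48, beside -0.02 for all probe sets. The risers were the fatty acid hydroxylases Cyp4a8, Cyp4a1, Cyp4a3, Cyp4b1 and Cyp4f1, the epoxygenase Cyp2c23, and the xenobiotic-oxidising Cyp2d2, Cyp2e1 and Cyp1a1. In bulk tissue, a change in the number of cells of a type and a change in RNA per cell cannot be told apart. Beside these genes, all 14 proximal tubule markers tested rose, and their summed signal was 48513 to 61439 at E18 and 982502 to 1093035 at Wk4. The part of the marker change in the P450 differences was not tested.

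**Figure D1:**
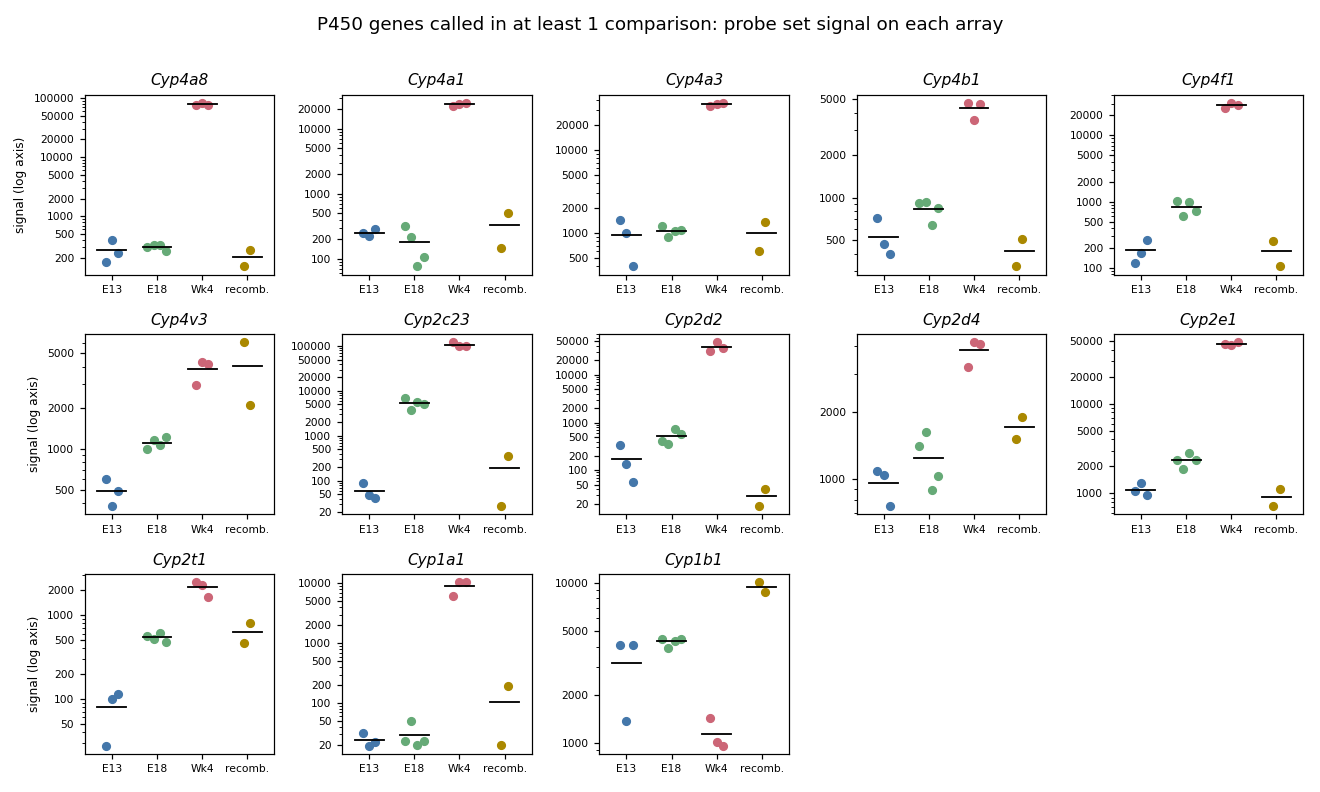
Signal of the 13 P450 genes called in at least 1 comparison, 1 point per array on a log axis, with the 4 groups on the x axis and a line at each group mean. Wk4 arrays lie above all embryonic arrays in 12 panels; in the panel of Cyp1b1 the recombined arrays, at 8740 and 10149, are highest.

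Cyp4a8 encodes a fatty acid omega-hydroxylase. Its signal was 170, 396 and 236 on the E13 arrays, 302, 322, 332 and 263 at E18, 76020, 83649 and 75434 at Wk4, and 142 and 270 in recombined tissue. All Wk4 arrays were far above all others, and the E13, E18 and recombined arrays overlapped. The difference from E18 to Wk4 was 7.09 ± 0.16 (limma adjusted p = 1.48e-12), 137-fold on the scale with 271 added. From E13 to E18 it was 0.12 ± 0.16 (adjusted p = 0.681). A further probe set of Cyp4a8 rose by 6.72 ± 0.25 (adjusted p = 4.76e-11).

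Cyp4a1, the lauric acid hydroxylase known as a target of the fatty acid receptor PPAR alpha, read 246, 226 and 284 at E13 and 321, 219, 76.5 and 108 at E18. Its Wk4 arrays read 22254, 24074 and 25221, and the recombined arrays 146 and 510. As with Cyp4a8, Wk4 stood alone and the other groups overlapped, with a Wk4 minus E18 difference of 5.77 ± 0.23 (limma adjusted p = 7.80e-11). Cyp4a3, an arachidonic acid omega-hydroxylase, read 1429, 988 and 396 at E13, 1219, 885, 1047 and 1090 at E18, 33397, 35329 and 36950 at Wk4, and 609 and 1370 in recombined tissue. Unlike the signals of Cyp4a8 and Cyp4a1, that of Cyp4a3 was above the 40th percentile on every E18 array. It rose by 4.74 ± 0.27 from E18 to Wk4 (adjusted p = 2.15e-09) and differed by 0.24 ± 0.27 between E13 and E18 (adjusted p = 0.599). Cyp4a genes are close paralogs, and a probe set can respond to more than 1 of them, so the split among the 3 is uncertain. A probe set annotated to several Cyp4a symbols at once read 209 to 454 at E18 and 82102 to 90661 at Wk4, a difference of 7.16 ± 0.16. Unlike the 3 genes, it was already higher at E18 than at E13, where it read 5.90 to 10.8. That difference was 1.12 ± 0.16 (limma adjusted p = 1.58e-04), under 3-fold. In recombined tissue this probe set read 6.40 and 34.2, below all E18 arrays.

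Cyp4b1, which acts on small xenobiotics and fatty acids outside the liver, changed less. It read 721, 466 and 396 at E13, 923, 928, 643 and 849 at E18, 4713, 3541 and 4627 at Wk4, and 325 and 509 in recombined tissue. Every Wk4 array was above every E18 array, with a difference of 2.04 ± 0.19 (limma adjusted p = 4.03e-07). With a pseudocount 4 times as large the difference was 1.48 and under 3-fold, although its adjusted p was 5.49e-08. In the RefSeq gene order, Cyp4a8, Cyp4a3, Cyp4a1 and Cyp4b1 form 1 cluster in which neighbours had at most 12 coding genes between them, and all 4 rose.

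Cyp4f1, of the subfamily that inactivates leukotriene B4, read 119, 168 and 264 at E13, 1024, 614, 970 and 716 at E18, 25731, 31045 and 29054 at Wk4, and 256 and 105 in recombined tissue. Its 3 stages did not overlap, and the recombined arrays lay within or below the E13 range. The difference from E13 to E18 was 1.27 ± 0.19 (limma adjusted p = 1.92e-04), under 3-fold, and from E18 to Wk4 it was 4.73 ± 0.19 (adjusted p = 7.93e-11). It was the only riser among the 5 genes of its cluster. The tested neighbours gave other values from E18 to Wk4: 0.52 ± 0.13 for Cyp4f6, -0.61 ± 0.27 for Cyp4f17 and -1.06 ± 0.24 for Cyp4f5. Cyp4f5 had adjusted p = 0.00186 in that comparison, with 502 to 820 at E18 and 111 to 381 at Wk4. The neighbour Cyp4f4 did not pass the filter.

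Cyp4v3, whose human counterpart is a fatty acid hydroxylase of the retina, did not follow the Cyp4a genes. It read 598, 379 and 486 at E13, 1001, 1153, 1055 and 1222 at E18, 2923, 4362 and 4158 at Wk4, and 6036 and 2104 in recombined tissue. Each stage was above the one before it, and the 2 recombined arrays lay on either side of the Wk4 arrays. Its difference from E18 to Wk4 was 1.55 ± 0.26 (limma adjusted p = 1.41e-04), just under 3-fold, and was 1.72 without Wk4 replicate 1 and 1.59 without E18 replicate 4, past 3-fold. The same difference was also past 3-fold with quantile normalization (1.64) and with median centring (1.60). From E13 to Wk4 it rose by 2.42 ± 0.28 (adjusted p = 2.71e-06). The second probe set annotated to Cyp4v3 did not pass the filter and read at most 285, so the pattern rests on 1 probe set.

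Cyp2c23, the main arachidonic acid epoxygenase of the rat kidney, was the only P450 gene called at both steps. It read 90.1, 49.1 and 42.1 at E13, 6893, 3851, 5536 and 5017 at E18, 121021, 101694 and 99776 at Wk4, and 27.4 and 350 in recombined tissue. The 3 stages did not overlap, and the recombined arrays lay on either side of the E13 range. The E18 minus E13 difference was 4.05 ± 0.22 (limma adjusted p = 1.89e-08) and the Wk4 minus E18 difference 4.29 ± 0.22 (adjusted p = 9.92e-10). It was the 1 of 22 genes that rose from E13 to E18, beside 1.93% of all tested probe sets. None of the 22 fell from E13 to E18 by limma (0.407% of all did), while 2 had an unadjusted p under 0.05 in that direction. Of the proximal tubule markers, 9 of 14 rose at this step, and their sum was 6991 to 8200 at E13.

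With Cyp2c23, 6 genes had an adjusted p under 0.05 with E18 above E13, beside 12.7% of all tested probe sets. The others, Cyp2d2, Cyp2e1, Cyp2t1, Cyp4f1 and Cyp4v3, did not reach 3-fold.

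Cyp2j3 and Cyp2j4, which also make epoxides of arachidonic acid, and Cyp2j10 form a cluster in which 0 of 3 were called by limma at any step. Cyp2j3 had a mean of 212 ± 110 (SD, n = 4) at E18 and 647 ± 137 (SD, n = 3) at Wk4, a difference of 0.95 ± 0.26 (adjusted p = 0.00607). Cyp2j4 read 1508 ± 193 (SD, n = 3) at E13, 994 ± 386 (SD, n = 4) at E18 and 1697 ± 70.3 (SD, n = 3) at Wk4, and its Wk4 minus E13 difference was 0.15 ± 0.21. Cyp2j10 read 661 ± 147 (SD, n = 3) at E13 and 284 ± 107 (SD, n = 3) at Wk4, a difference of -0.75 ± 0.23 (adjusted p = 0.0104). All 3 stayed under the 3-fold limit in every comparison, unlike Cyp2c23. Cyp2u1, a hydroxylase of long-chain fatty acids, was lower at Wk4, with 2393 ± 295 (SD, n = 4) at E18 and 1110 ± 42.7 (SD, n = 3) at Wk4 and a difference of -0.94 ± 0.13 (adjusted p = 2.73e-05).

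Cyp2d2, the debrisoquine hydroxylase of the rat, read 338, 133 and 56.7 at E13, 412, 361, 743 and 569 at E18, 31010, 47857 and 36698 at Wk4, and 17.8 and 40.5 in recombined tissue. Recombined arrays were the lowest and Wk4 arrays the highest, with no overlap among the 4 groups. The E18 minus E13 difference was 0.85 ± 0.23 (limma adjusted p = 0.0181) and the Wk4 minus E18 difference 5.62 ± 0.23 (adjusted p = 1.18e-10). Cyp2d4, its relative known mainly from brain, read 1084, 1039 and 750 at E13, 1409, 1634, 884 and 1026 at E18, 3222, 4163 and 4090 at Wk4, and 1515 and 1906 in recombined tissue. Wk4 arrays were above the rest, by 1.46 ± 0.19 over E18 (adjusted p = 1.38e-05) and by 1.74 ± 0.20 over E13 (adjusted p = 3.50e-06), which was the one past 3-fold. Its other probe set differed by 1.81 ± 0.18 from E18 to Wk4, past 3-fold. With the pseudocount 4 times as large the difference from E13 was 1.26. As with Cyp4a, a probe set annotated to several Cyp2d symbols rose, by 3.91 ± 0.21 from E18 to Wk4, and the split among close paralogs is uncertain. Unlike Cyp2d2, that probe set was higher in recombined tissue, at 377 and 195, than on all embryonic arrays. The differences were 0.84 ± 0.25 over E13 and 0.82 ± 0.23 over E18 (limma adjusted p = 0.0185 and 0.0174), under 3-fold.

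Cyp2e1, which oxidises ethanol and small solvents, read 1051, 1294 and 961 at E13, 2345, 1885, 2816 and 2371 at E18, 45826, 45435 and 48359 at Wk4, and 723 and 1107 in recombined tissue. The 3 stages were in separate ranges. The E18 minus E13 difference was 0.93 ± 0.15 (limma adjusted p = 4.88e-04) and the Wk4 minus E18 difference 4.17 ± 0.15 (adjusted p = 3.97e-11). Cyp2e1 is also abundant in liver, and the hepatocyte markers gave a summed signal of 5154 to 6134 at E18 and 6231 to 14942 at Wk4, with 6 of 9 markers passing the filter. Of these 6, Fga and Apoh were called higher at Wk4 and Afp lower, with means of 2942 at E18 and 454 at Wk4. Albumin read 4827 on Wk4 replicate 1, against 686 and 611 on the other Wk4 arrays, while the Cyp2e1 signal of that array lay between those of the others. The part of liver tissue in the Cyp2e1 difference was not tested.

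Cyp2t1 read 27.7, 98.5 and 116 at E13, 561, 521, 619 and 480 at E18, 2495, 2277 and 1664 at Wk4, and 460 and 803 in recombined tissue. Its stages were separate, and the recombined arrays were on either side of the E18 range. The differences were 1.22 ± 0.20 at the first step (limma adjusted p = 5.34e-04), 1.55 ± 0.20 at the second (adjusted p = 1.22e-05) and 2.77 ± 0.22 from E13 to Wk4 (adjusted p = 4.05e-08). The last was past 3-fold, and was 1.46 with a pseudocount 4 times as large. The difference at the second step passed 3-fold with quantile normalization (1.62) and with median centring (1.60). Cyp2s1, at the other end of the same 10-gene cluster, differed by 0.62 ± 0.19 from E18 to Wk4 (adjusted p = 0.0127), and the 8 genes listed between them did not pass the filter.

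From E13 to Wk4, 12 of the 22 genes rose, beside 9.39% of all tested probe sets. They were the 9 risers of the last step with Cyp2d4, Cyp2t1 and Cyp4v3. The median difference of the 22 was 2.08, beside -0.11 for all tested probe sets. Without the filter the count was again 12, of 42, and the median was 0.21, beside -0.04 for all probe sets. The share of all probe sets called without the filter is not given for this comparison. Of the 22, none fell by limma, beside 8.46% of all tested probe sets. Cyp1b1, Cyp2u1 and Cyp2j10 had an adjusted p under 0.05 in that direction and missed the fold limit, and 3 genes had an unadjusted p under 0.05. This comparison shares its Wk4 arrays with the step from E18 and its E13 arrays with the step to E18.

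Cyp1a1, which oxidises polycyclic aromatic hydrocarbons and is the best known target of the aryl hydrocarbon receptor, read 31.7, 19.5 and 22.1 at E13, 22.9, 49.5, 20.2 and 23.3 at E18, 6104, 10606 and 10613 at Wk4, and 19.6 and 191 in recombined tissue. Only its Wk4 arrays were above the 40th percentile. The Wk4 minus E18 difference was 4.92 ± 0.23 (limma adjusted p = 3.80e-10) and the E18 minus E13 difference 0.02 ± 0.23 (adjusted p = 0.965). Its neighbour Cyp1a2, the main family 1 enzyme of liver, did not pass the filter and read 79.3 to 128 at Wk4. The receptor gene Ahr, named for its role after its values were seen, read 458, 638, 219 and 839 at E18 and 935, 1109 and 429 at Wk4. The Ahr arrays overlapped, with a difference of 0.44 ± 0.28 (adjusted p = 0.197). Of the other genes of the receptor's battery, 0 of 3 tested were called by limma from E18 to Wk4, and 2 had an unadjusted p under 0.05 and were higher.

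Cyp1b1, which oxidises oestradiol, retinoids and polycyclic hydrocarbons and is known from mesenchymal cells, was the only one of the 22 that fell from E18 to Wk4. It read 4067, 1368 and 4086 at E13, 4488, 3923, 4337 and 4456 at E18, 1422, 1005 and 960 at Wk4, and 10149 and 8740 in recombined tissue. The E18 arrays were close together, Wk4 was low, recombined tissue was the highest group, and E13 replicate 2 lay far below the other E13 arrays. The Wk4 minus E18 difference was -1.72 ± 0.27 (limma adjusted p = 7.42e-05), and -1.29 with a pseudocount 4 times as large, under 3-fold. The Wk4 minus E13 difference was -1.18 ± 0.29, and -1.65 without E13 replicate 2, past 3-fold. Beside it, the summed signal of 10 stromal and fibroblast markers was 125278 to 159166 at E13, 247548 to 281716 at E18, 112124 to 163386 at Wk4 and 604433 to 718530 in recombined tissue. The part of the stromal markers in the Cyp1b1 differences was not tested.

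**Figure D2:**
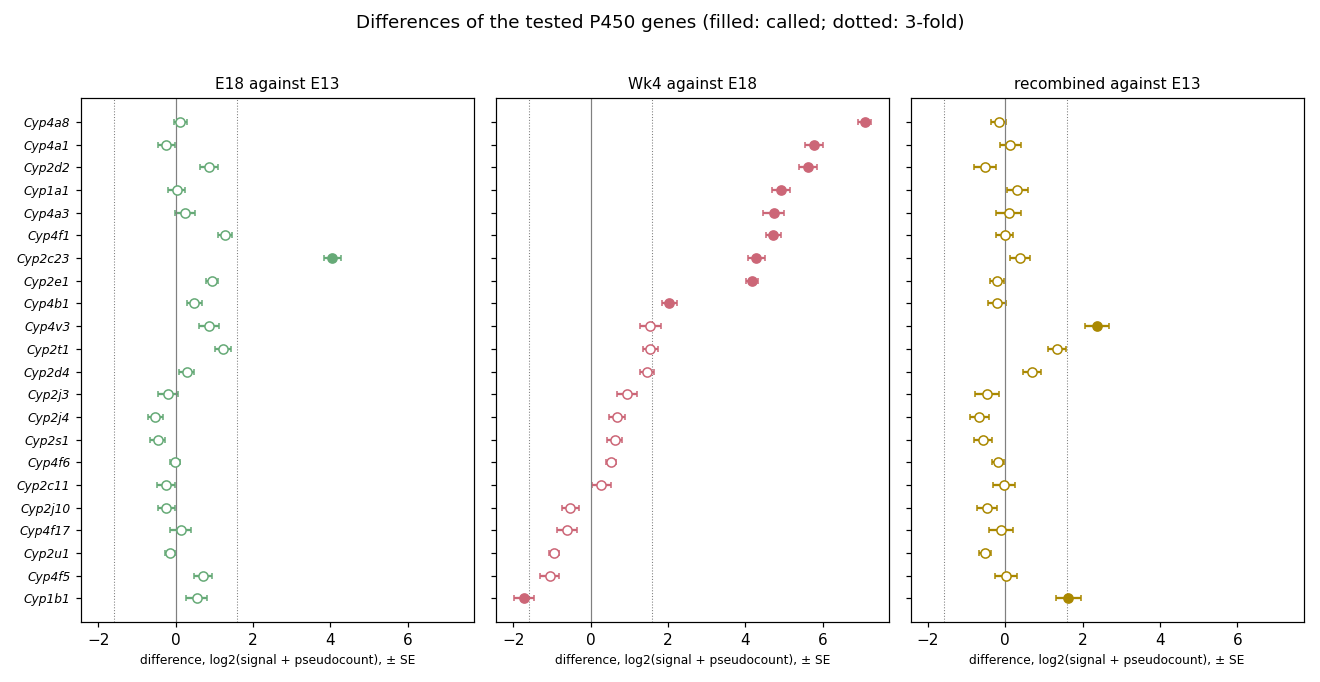
Differences of the 22 tested P450 genes in 3 comparisons, on the log2(signal + 271) scale with bars of ± SE; filled points were called and dotted lines mark 3-fold. From E13 to E18 only Cyp2c23 is filled, from E18 to Wk4 there are 9 filled points to the right and Cyp1b1 to the left, and for recombined tissue minus E13 only Cyp4v3 and Cyp1b1 are filled.

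By the calls at both steps, 8 of the 22 genes were not called from E13 to E18 and rose from E18 to Wk4, a pattern held by 6.03% of 11913 tested genes. Cyp1a1, Cyp4a1 and Cyp4a8, which had this pattern, passed the filter through Wk4 arrays alone, so its share of the 22 depends on the filter. One gene rose at both steps (1.07% of genes), 1 was not called and then fell (6.40%), and 12 were not called at either step (84.6%). Both steps share the E18 arrays.

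In recombined tissue the 9 genes that rose from E18 to Wk4 were low. All 9 were called lower than at Wk4, with no overlap of arrays, and none was called higher than at E13 by limma. Of the 9, 7 were not above the 40th percentile on either recombined array, whereas Cyp4a3 and Cyp2e1 were above it on both. Against Wk4, 9 of the 22 genes were lower (7.32% of all tested probe sets) and 1 higher (7.88%), with a median of -1.13 beside 0.19 for all. Over all 42 genes the unfiltered median was -0.29, beside 0.12. The differences ran from -2.73 ± 0.23 for Cyp4b1 to -7.96 ± 0.27 for Cyp2c23 (limma adjusted p = 1.50e-07 and 1.70e-11), and Cyp4a8 was at -7.38 ± 0.19. These differences and the rises above share the Wk4 arrays. The proximal tubule markers moved with them, with a sum of 12130 to 14038 in recombined tissue and all 14 lower than at Wk4. The endothelial markers were lower too, with 7 of 8 called and a sum of 5942 to 14264 against 64419 to 72219 at Wk4. Against E18, 6 of the 8 were called lower, and against E13 3. The part of either marker list in the P450 differences was not tested.

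Against E18, Cyp2c23 was the only P450 gene called lower, by -3.67 ± 0.25 (limma adjusted p = 1.83e-07), beside 1.67% of all tested probe sets. None was called higher by limma (2.73% of all). Cyp4v3 and Cyp1b1 had an adjusted p under 0.05 in that direction and missed the fold limit, and 2 genes had an unadjusted p under 0.05. With Cyp2c23, 5 genes had an adjusted p under 0.05 and were lower, beside 15.5% of all tested probe sets. The others were Cyp2d2 (-1.38 ± 0.26), Cyp4f1 (-1.29 ± 0.21), Cyp2e1 (-1.15 ± 0.17) and Cyp4b1 (-0.69 ± 0.22). For 7 genes the recombined arrays lay below all E18 arrays, and for 2 above all of them. The share of all probe sets separated in this way was not counted, so these counts are description only. Of the proximal tubule markers, 6 of 14 were lower than at E18.

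Against E13, 2 of the 22 genes were higher (3.95% of all tested probe sets), Cyp4v3 and Cyp1b1. None was lower by limma (0.912% of all), where 2 had an adjusted p and 3 an unadjusted p under 0.05 in that direction. Cyp4v3 differed by 2.36 ± 0.31 (limma adjusted p = 5.71e-05), with both recombined arrays above all E13 and E18 arrays. Against E18 its difference was 1.49 ± 0.29, and 2.20 without recombined replicate 2, past 3-fold. Cyp1b1 differed from E13 by 1.63 ± 0.32 (adjusted p = 0.00148), just past 3-fold. The call rested on E13 replicate 2: without it the difference was 1.16, and within set 1 of the embryonic arrays, which lacks it, 1.16 as well. It was 1.52 without recombined replicate 1 and 1.58 with the set as a covariate, both under 3-fold. Against Wk4 it was 2.81 ± 0.32 (adjusted p = 4.06e-06).

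**Figure D3:**
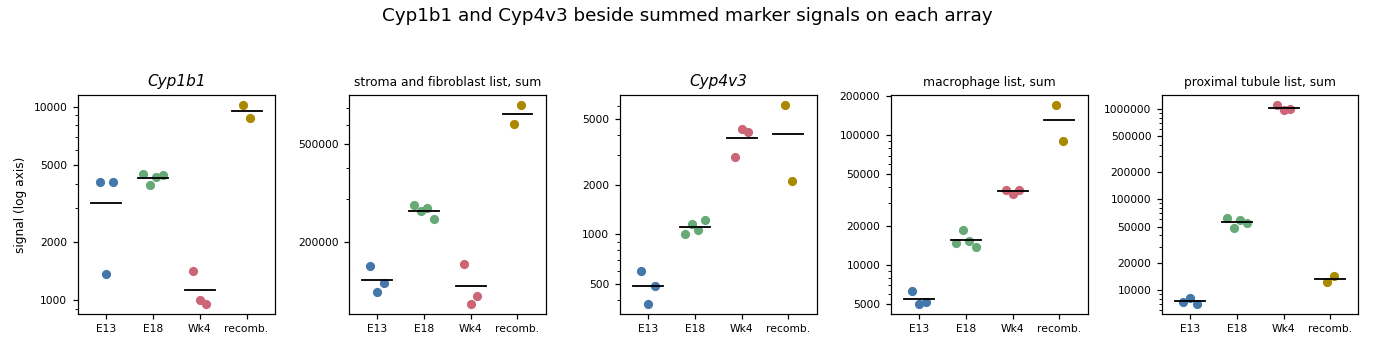
Signal of Cyp1b1 and Cyp4v3 and summed signals of the stroma and fibroblast, macrophage and proximal tubule marker lists on each array, on log axes, with a line at each group mean. The stromal and macrophage sums are highest in recombined tissue, as are both Cyp1b1 arrays and 1 Cyp4v3 array, and the proximal tubule sum is highest at Wk4.

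Macrophage markers also moved with recombined tissue. All 7 tested were higher than at E13. The sum of all 9 measured, tested or not, was 5018 to 6285 at E13, 35381 to 38205 at Wk4 and 91232 to 170645 in recombined tissue. Recombined replicate 1, with 6036 for Cyp4v3, had the marker sum of 170645, and replicate 2, with 2104, that of 91232. Single markers differed by unlike amounts between replicates 1 and 2, from 9141 and 8856 for Csf1r to 9902 and 1358 for Fcgr2b. The defining markers Cd163 and Itgam did not pass the filter. In recombined tissue Cd163 read 83.6 and 18.7. Itgam read 1397 and 197 there, against at most 83.0 on every array of the other groups. Of 5 adipocyte markers tested, 3 were called higher than at E13, Cfd, Fabp4 and Lpl. The summed signal of all 6 measured was 32214 to 49365 against 1358 to 2143 at E13, and Lpl alone read 36106 and 22954 in recombined tissue. Adipoq (190 and 574) and Plin1 (48.8 and 454) overlapped E13 and were not called, and Lep did not pass the filter. The part of these markers in the Cyp4v3 difference was not tested. Of 7 adrenal cortex markers 1 passed the filter, Cyp11a1, and it was not called in any comparison. The sums were low but differed, at 859 to 1727 at E13 and 1077 to 1271 at E18. They were 2623 to 3514 at Wk4 and 1983 to 2053 in recombined tissue. Hsd3b1, which did not pass, read 496 to 918 at Wk4 and at most 63.1 in the other groups. The part of these markers in the P450 differences was not tested.

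On the mean log2 scale, recombined tissue was nearest to E13 for 11 of the 22 genes, to E18 for 10 and to Wk4 for 1, Cyp4v3. Over all tested genes the shares were 34.0%, 41.7% and 24.3%. The genes nearest to E13 included 8 of the 9 risers. For several, the E13 and E18 means were close, and the order between them carries little weight, as for Cyp4a3 with 938 ± 518 (SD, n = 3) and 1060 ± 138 (SD, n = 4). Cyp2t1 passed the adjusted p over E13 without reaching 3-fold (1.34 ± 0.24, limma adjusted p = 7.01e-04) and differed from E18 by 0.12 ± 0.23. Cyp2d4 was likewise above E13, by 0.69 ± 0.23 (adjusted p = 0.0328).

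The 20 genes that did not pass the filter were all 3 Cyp2a genes, all 3 Cyp2b genes, all 4 Cyp3a genes, 5 of 7 Cyp2c genes, and Cyp1a2, Cyp2d3, Cyp2f4, Cyp2g1 and Cyp4f4. These subfamilies include the main drug-oxidising enzymes of liver. On none of the 12 arrays were 18 of them above the 40th percentile, and Cyp2d3 and Cyp2f4 were above it on 1 Wk4 array each, at 612 and 770. No detection calls were used, so a low signal does not show that a transcript was absent. With no filter, 0 of the 20 were called by limma in any of the 6 comparisons, and from E18 to Wk4 7 had an unadjusted p under 0.05 and were higher. Cyp2d3 came closest, with 80.5 at E18 and 404 at Wk4 and a difference of 0.90 ± 0.21. Cyp2c11, the male-specific P450 of adult liver, passed the filter with means of 388 at E13, 277 at E18, 405 at Wk4 and 376 in recombined tissue, and was not called in any comparison.

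The genes that serve P450 enzymes were read from lists. Of 9 electron supply genes, 1 rose from E18 to Wk4, the reductase Por. It read 2639, 3629, 2942 and 2746 at E18, 10764, 14283 and 12195 at Wk4, and 3630 and 2859 in recombined tissue. Wk4 arrays were above the rest, by 1.96 ± 0.14 over E18 (limma adjusted p = 2.94e-08). The electron donor Cyb5a rose by 2.06 ± 0.16 and Por by 1.98 ± 0.15 from E13 to Wk4, both among the 3 of 9 called. In recombined tissue 4 of the 9 were lower than at Wk4.

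Of 12 genes of haem synthesis and breakdown, none was called from E18 to Wk4 by limma, where 5 were higher and 5 lower at an unadjusted p under 0.05, and 2 rose from E13 to Wk4. One was Alas1, the first enzyme of haem synthesis, at 2356 ± 205 (SD, n = 3) and 9482 ± 1526 (SD, n = 3). Its Wk4 minus E13 difference was 1.88 ± 0.17 (adjusted p = 1.88e-07). Hmox1, which breaks haem down, was highest in recombined tissue, at 8208 and 3988 against 952 to 1317 at E13, a difference of 2.13 ± 0.27 (adjusted p = 4.09e-05).

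**Figure D4:**
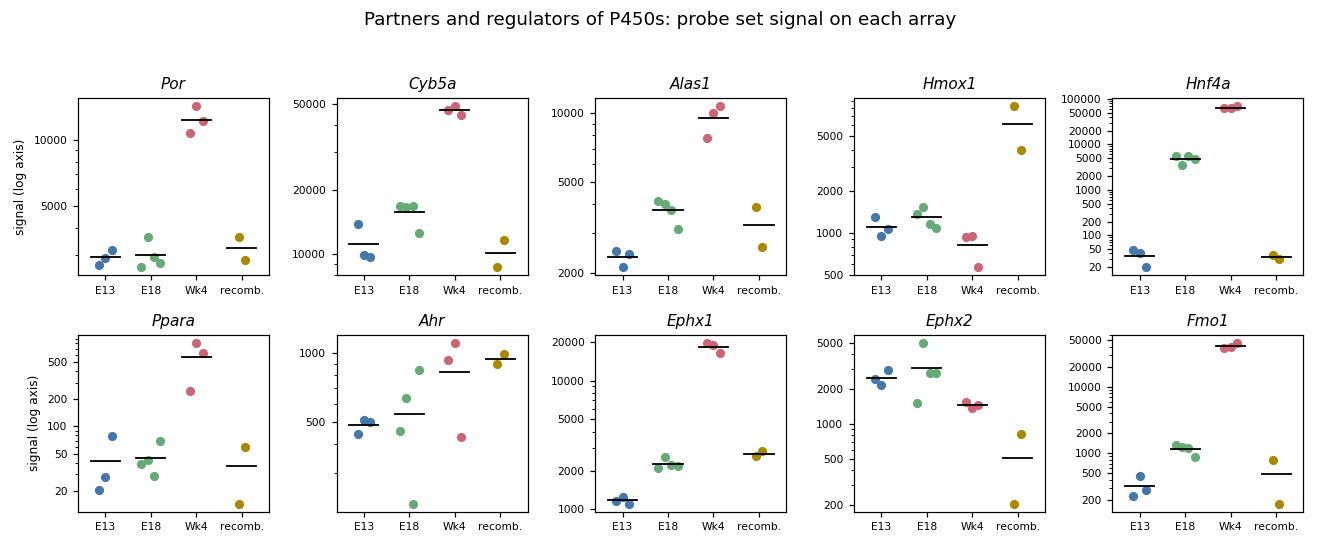
Signal of 10 partner and regulator genes on each array, on log axes, with the 4 groups on the x axis and a line at each group mean. Por, Cyb5a, Alas1, Hnf4a, Ephx1 and Fmo1 are highest on the Wk4 arrays, Hmox1 is highest in recombined tissue, and Ephx2 is lowest there. The Ahr arrays of E13, E18 and Wk4 overlap, and both recombined Ahr arrays lie above those of E13 and E18.

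Of 12 regulators tested, 4 rose from E18 to Wk4 by limma, and none fell or was lower at an unadjusted p under 0.05. Hnf4a, which encodes a transcription factor of the nuclear receptor family, was called higher at both steps, and read 37.2 and 30.6 in recombined tissue against 61741 to 68813 at Wk4. The bile acid receptor gene Nr1h4 rose by 4.04 ± 0.25 (limma adjusted p = 4.79e-09) and the oxysterol receptor gene Nr1h3 by 3.06 ± 0.20 (adjusted p = 7.67e-09). Ppara, named for its role after its values were seen, had 28.9 to 70.2 at E18 and 244, 813 and 635 at Wk4, a difference of 1.33 ± 0.27 (adjusted p = 7.23e-04), under 3-fold. Of 8 tested PPAR alpha targets other than P450s, 3 rose from E18 to Wk4, among them Ehhadh, a peroxisomal beta-oxidation enzyme (4.35 ± 0.18), and Acadm, the medium-chain acyl-CoA dehydrogenase (2.90 ± 0.09). Ehhadh, like most P450 risers, was low in recombined tissue, at 19.8 and 31.2.

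The flavin monooxygenases, which oxidise nitrogen and sulphur compounds beside the P450s, had 4 of 4 members rise from E18 to Wk4. Fmo1 differed by 4.87 ± 0.25 (limma adjusted p = 7.05e-10), Fmo2 by 4.71 ± 0.29 and Fmo4 by 3.89 ± 0.17. All 4 were lower in recombined tissue than at Wk4. The epoxide hydrolases, which act on the products of epoxygenases, did not move together. Ephx1 rose by 2.87 ± 0.12 from E18 to Wk4 (adjusted p = 1.27e-10). Ephx2, which hydrolyses epoxyeicosatrienoic acids, was 1526 to 4986 at E18 and 1371 to 1552 at Wk4, and was called lower in recombined tissue, at 207 and 818, than at E13 (-1.94 ± 0.37, adjusted p = 0.00117).

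Of 10 tested P450 genes outside families 1 to 4, none rose from E18 to Wk4 by limma, where 5 were higher at an unadjusted p under 0.05, and 1 fell. The faller was Cyp26b1, which degrades retinoic acid, at 5541 to 8766 at E18 and 904 to 1307 at Wk4 (-2.36 ± 0.16, adjusted p = 1.68e-08). In recombined tissue Cyp26b1 was again low, at 1157 and 879, while Ptgis, the prostacyclin synthase, and Tbxas1, the thromboxane synthase, were higher than at E18 by 2.72 ± 0.35 and 1.73 ± 0.22 (adjusted p = 4.58e-05 and 4.81e-05). The levels in recombined tissue were 7684 and 5841 for Ptgis and 4465 and 3136 for Tbxas1, each above all arrays of the other groups.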

How the data were processed

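Biotinylated cRNA from rat kidney and recombined tissue was hybridised to Affymetrix arrays, per the labels' protocols. The deposited values give each probe set's intensity, unlogged, and were made by the authors with GCOS, as the submitters' processing notes record. Its version is not given in the sources used here. On every array the mean without the lowest and highest 2% of values was about 2500.7, so a shift in total RNA would not show. Each column was matched to its sample by title.

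The analysis took log2 after adding 271, the 25th percentile of the deposited signals. Control probe sets (57) were dropped, and 22599 of 31042 probe sets passed the filter. All 12 arrays entered 1 model in limma 3.58.1 (R 4.3.3; lmFit, eBayes with intensity trend, 8 residual degrees of freedom), with two-sided p-values adjusted over the 22599 by Benjamini-Hochberg. The steps were tested on simulated data first. Genes were named from the platform annotation: a single symbol was given for 20826 probe sets, more than 1 for 436 and no symbol for 9780. All 42 P450 genes matched RefSeq by gene ID.

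Every P450 gene called in any comparison is named, and list genes are named from the 3 largest called changes, with exceptions stated. The members, the gene lists and the sets of embryonic arrays were chosen with earlier results of these data known. Alternatives covered the pseudocount, normalization, filter, variance model, arrays in the fit, replicate block, embryonic set, fold limit, probe sets per gene and each array left out. Replicate numbers do not pair the samples.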

Additional observations from a re-analysis of the deposited data

Results flagged for a closer look

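In the E18 group, Cyp1a1 had 1 array far from the others: E18 replicate 2 read 49.5 and the other 3 arrays 20.2 to 23.3. The gap to the next array was larger than Dixon's 95% critical share of the range for 4 samples. Of the 22 genes examined in this way 1 was singled out, and chance does so for about 1 group in 20. All 4 signals were below the 40th percentile of their arrays. The same array differed from the other E18 arrays in Xist and Eif2s3y, and the part of this in the Cyp1a1 signal was not tested.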

How the results depend on the processing

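Of the 36 pairs of a P450 gene and a comparison that were called, 31 kept their call under all 26 alternatives, 5 lost it under at least 1, and 0 changed sign. The 5 were Cyp1b1 (-1.29) and Cyp4b1 (1.48) at Wk4 against E18, Cyp2d4 (1.26) and Cyp2t1 (1.46) at Wk4 against E13, each with a pseudocount 4 times as large, and Cyp1b1 in recombined tissue against E13, which was under 3-fold in 6 settings (1.16 to 1.58). With a pseudocount of 1, the genes called higher at E18 over E13 numbered 4, those lower at Wk4 than E18 2, those lower in recombined tissue than E13 1, and those higher and lower than E18 1 and 3. With it 4 times as large, 0 genes were lower at Wk4 than at E18 and 1 was higher in recombined tissue than at E13; that last count was also 1 with median centring and with the embryonic set as a covariate. At a 2-fold limit the counts were 3 higher at E18 over E13, 2 lower at Wk4 than E18, 2 lower at Wk4 than E13, and 2 higher and 4 lower in recombined tissue than E18. Leaving out 1 array at a time gave 0 to 1 lower at Wk4 than E13, 1 to 2 higher in recombined tissue than E13 and 0 to 1 higher than E18. With the embryonic arrays of set 1 alone, a setting added after the data were seen, 1 gene was lower at Wk4 than E13 and 1 higher in recombined tissue than E13. Cyp4v3 and Cyp2t1 were also called higher at Wk4 over E18 with quantile normalization and with median centring. The cause of these shifts was not tested, apart from the fold limit itself. Residuals of arrays with the same replicate number correlated between -0.172 and 0.312, so the numbers are not treated as pairs; with the replicate block 10 genes were called higher at Wk4 over E18 in place of 9, since Cyp4v3 passed 3-fold (1.59), and no other call of a P450 gene changed. Low signals have no detection call here, so the differences of genes near or below the 40th percentile at E13 and E18 depend on the added 271. Recombined tissue had 2 arrays, and the spread of its group is borrowed in part from the other groups.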
